A study of Mus musculus with 4 samples.

Results

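The genes described here encode the SR proteins (Srsf family), the heterogeneous nuclear ribonucleoproteins (Hnrnp family) and the protein parts of the spliceosome that carry the symbols Snrnp, Snrp, Sf3a, Sf3b, Prpf, U2af and Luc7l. They were chosen by symbol alone, as protein-coding genes whose name begins with one of these stems, and 79 of the 29300 genes in the deposited table met the rule. Counts were high enough for a test in 78 of them, the exception being another entry for U2af1l4 with 0 to 3 counts per mouse. Hippocampal RNA came from C57BL/6 mice aged 7 to 8 months on day 1 after the procedure. The 2 control (sham) mice had isoflurane anesthesia and tramadol analgesia, and the 2 surgery mice had the same plus a tibial fracture, a model of perioperative neurocognitive disorder (PND). RNA with a poly(A) tail was sequenced, and the table gives the count of reads per gene in each mouse.

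The spliceosome removes introns from pre-mRNA. Its U1 particle recognizes the 5′ splice site, U2AF and the U2 particle recognize the 3′ end of the intron, and the U4/U6.U5 tri-snRNP then joins and is rearranged into the catalytic machine. SR proteins bind exons through an RNA recognition motif and recruit these particles through a tail of alternating arginine and serine (the RS domain), while many hnRNP proteins package the transcript and can block splice sites. Neurons have unusually extensive alternative splicing, and several of these genes control their own mRNA by including a poison exon or retaining an intron, forms that a count per gene does not separate.

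The RS domain can be read in the coding sequence. Each line below is 90 bases in frame from a single coding exon of the mouse genome mm10 with GENCODE M21 models, taken where arginine and serine codons together are most frequent, 5′ to 3′ on the coding strand, with arginine codons in capitals. Srsf10 (chr4:135863075-135863164, plus strand), Luc7l2 (chr6:38603371-38603460, plus), Snrnp27 (chr6:86682885-86682974, minus) and Prpf38b (chr3:108904516-108904605, minus) are shown because they rose in both forms of the analysis below and belong to 4 different families. Srsf2 (chr11:116852238-116852327, minus) also rose, from a far more GC-rich gene. Srsf4 (chr4:131900959-131901048, plus) and Snrnp70 (chr7:45377101-45377190, minus) are RS-bearing members that did not pass the test.
Srsf10: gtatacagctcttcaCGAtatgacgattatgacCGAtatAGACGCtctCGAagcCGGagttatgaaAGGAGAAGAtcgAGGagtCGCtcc
Luc7l2: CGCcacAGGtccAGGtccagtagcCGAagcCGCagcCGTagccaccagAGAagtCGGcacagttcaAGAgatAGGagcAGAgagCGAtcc
Snrnp27: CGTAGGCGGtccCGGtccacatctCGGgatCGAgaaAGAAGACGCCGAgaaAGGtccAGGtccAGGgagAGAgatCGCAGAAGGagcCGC
Prpf38b: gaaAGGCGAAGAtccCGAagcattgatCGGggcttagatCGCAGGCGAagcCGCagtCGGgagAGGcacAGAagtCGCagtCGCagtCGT
Srsf2: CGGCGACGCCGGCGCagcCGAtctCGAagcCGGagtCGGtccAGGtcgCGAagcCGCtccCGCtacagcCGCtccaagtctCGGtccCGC
Srsf4: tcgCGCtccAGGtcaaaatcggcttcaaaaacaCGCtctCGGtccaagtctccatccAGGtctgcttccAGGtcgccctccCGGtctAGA
Snrnp70: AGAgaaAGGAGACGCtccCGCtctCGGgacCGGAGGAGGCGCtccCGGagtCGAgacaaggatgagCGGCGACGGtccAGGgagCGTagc
The 90 bases of Srsf10 hold 11 arginine codons, 5 of which are AGA or AGG, and their GC content is 47.8%. Those of Srsf2 hold 16 arginine codons, 1 of which is AGA or AGG, and their GC content is 73.3%. Across the 78 members the share of arginine codons written AGA or AGG correlated with the log2 fold change after surgery (Spearman's rho 0.54, taken over genes that share the same 4 libraries and are not independent replicates). The same genes also differ in GC content, which is taken up with the fold changes below.

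The total count per mouse was between 15763432 and 18573386, and 24238 to 25324 genes were detected. Counts were scaled by TMM and are given as CPM, counts relative to the scaled library size. The 2 groups were compared over 17144 genes with the quasi-likelihood test of edgeR, and a gene passed at a Benjamini-Hochberg adjusted p under 0.05. It was called a DEG if its fold change was also at least 1.5 or at most 0.67. Nothing beyond the 2 mice in each group bears on replication, so the p-values measure the spread between these 4 samples. All 8 markers of hippocampal subfields were detected in each mouse, with a summed level of 1071 to 1184 CPM in control and 1066 to 1192 CPM in surgery mice. Transcripts of the mitochondrial genome made up 2.52% to 2.82% of each control library and 4.44% to 4.48% of each surgery library, and 11 of the 12 tested were higher. Among 8 nuclear-retained RNAs, 4 were higher and 1 was lower, with summed levels of 8166 to 8373 CPM in control and 9302 to 10470 CPM in surgery mice. Of 6 oligodendrocyte precursor markers, 3 were lower, with summed levels of 363.1 to 391.6 CPM in control and 274.2 to 327.4 CPM in surgery mice. Of the other lists, neurons had 2 markers higher and 1 lower of 8, hippocampal subfields 2 and 2 of 8, astrocytes 3 and 2 of 8, microglia 1 and 0 of 8, endothelial cells 2 and 0 of 7 and neutrophils 0 and 1 of 5, while no marker of oligodendrocytes, choroid plexus or red blood cells passed. Summed choroid plexus markers were 131.5 and 5453 CPM in the control mice and 2049 and 3472 CPM in the surgery mice. Surgery mouse 2 had the lowest sum of oligodendrocyte markers (4036 CPM, against 5475 to 6349 CPM in the other mice) and the highest sum of endothelial markers (336.7 CPM, against 227.6 to 246.3 CPM). No marker in these lists was at 0 in all 4 libraries. The part of any of these in the results below was not tested, and in bulk tissue fewer cells of a type and less RNA per cell cannot be told apart.

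Of the 78 members tested, 30 (38.5%) were higher in surgery mice and 14 (17.9%) were lower, against 13.1% and 12.8% of all genes tested, so that 44 passed in either direction, against 26.0% of all genes. DEGs numbered 12 among the higher members and 1 among the lower, where 6.75% and 2.25% of all genes were DEGs in these directions. The counts differed by family. Passing members of the Srsf, Hnrnp and Luc7l families were all higher (7 of 11, 10 of 20 and 3 of 3), those of the Snrp and Sf3 families were mostly lower (4 lower and 1 higher of 12, and 4 lower and 1 higher of 9), and the Prpf and Snrnp families went both ways (6 higher and 3 lower of 13, and 2 and 2 of 7), while in the U2af family 1 of 3 was lower. The summed members made up 0.861% and 0.828% of the 2 control libraries, and 0.988% and 1.01% of the 2 surgery libraries. Both surgery mice lay above both control mice in 41 members and below them in 25, compared with 33.2% and 32.3% of all genes. Members are measured more precisely than most genes, having a median level of 72.2 CPM against 17.6 CPM and a median standard error of 0.082 against 0.14 on the log2 scale. Among the 10362 genes with a mean of at least 10 CPM, a bound set after the values were seen, 18.1% were higher and 20.6% lower, and the 74 members above that bound included 30 higher and 13 lower.

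**Figure D1:**
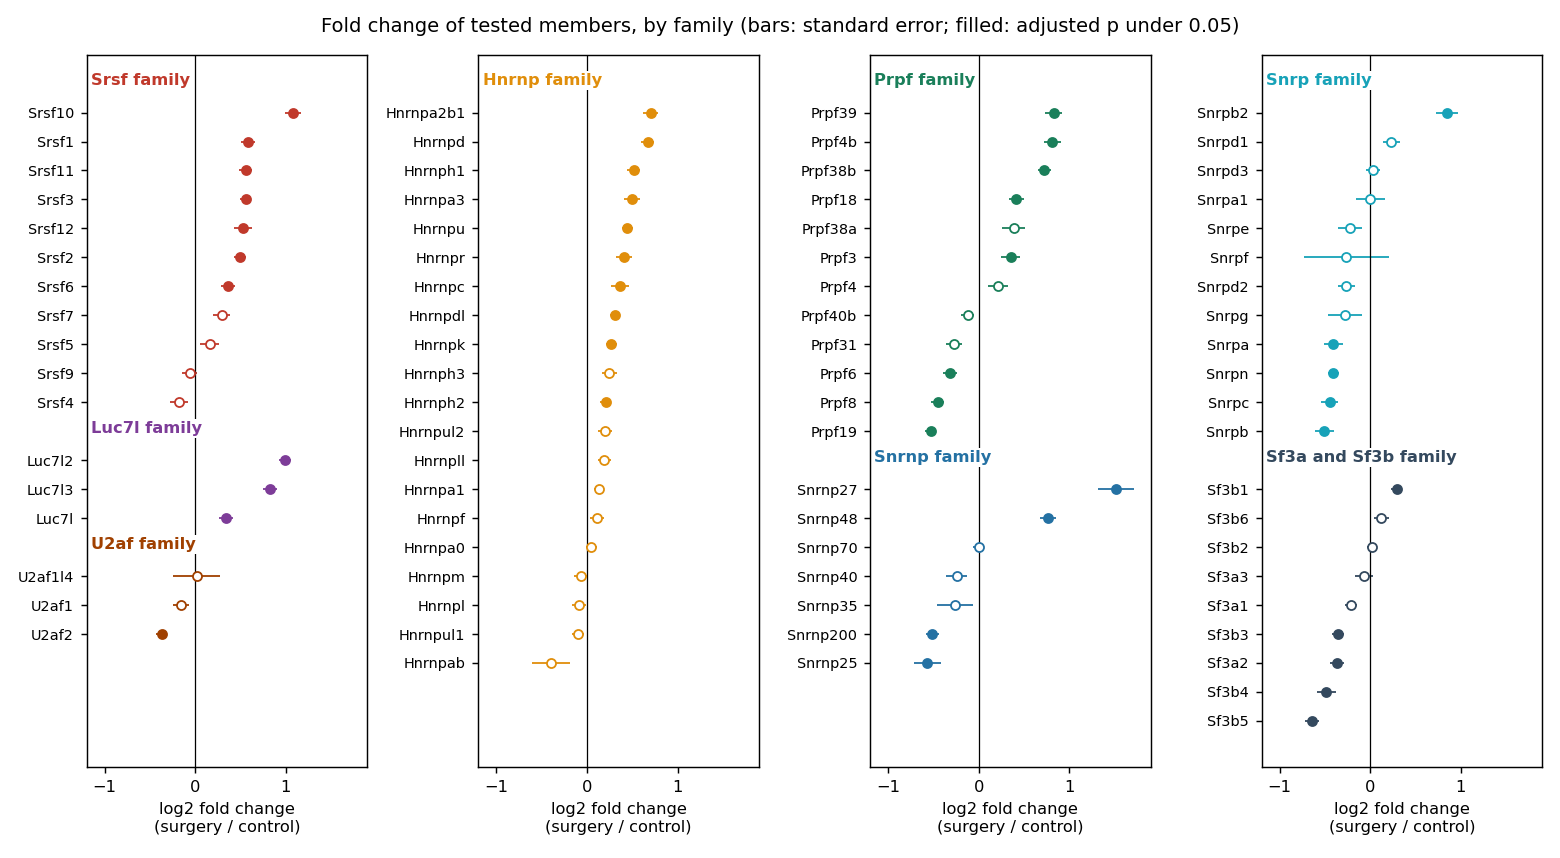
Each point is a tested member, grouped by family, with its log2 fold change between surgery and control mice on the horizontal axis and a bar of 1 standard error. Filled points passed the edgeR test at an adjusted p under 0.05. The Srsf, Hnrnp and Luc7l families have filled points only to the right of 0, and most filled points of the Snrp and Sf3 families lie to its left.

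All of these fold changes have to be read beside a trend that ran through the whole table, in which genes with GC-poor transcripts were higher after surgery and genes with GC-rich transcripts were lower. The log2 fold change correlated with transcript GC content across the 78 members (Spearman's rho -0.66) as it did across 17120 genes (rho -0.64), again across genes. Between mice of the same group, the members' differences correlated with GC content at rho 0.28 in the control mice and -0.18 in the surgery mice. A further count was therefore taken for every family, after the smooth dependence of each library on transcript length and GC had been removed. This correction left 7 members higher and 6 lower, where 0.968% and 1.46% of all genes passed (2.43% in either direction), and 4 of the 7 and 2 of the 6 were DEGs, against 0.63% and 0.315% of all genes. All 13 had also passed without it, in the same directions, and the correlation with GC content across members became -0.13. Of the 30 members that had been higher, 7 had a negative log2 fold change after the correction, and none of the 14 that had been lower became positive. Of the 12 mitochondrial transcripts, 1 was higher with the correction (median log2 fold change 0.21 in place of 1.09), 1 marker each of hippocampal subfields and of astrocytes was higher, and no gene of the other marker lists, the nuclear-retained RNAs and oligodendrocyte precursors included, passed. With 2 libraries per group, a trend of the surgery mice and a trend of their libraries cannot be told apart, so each family is given both ways.

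**Figure D2:**
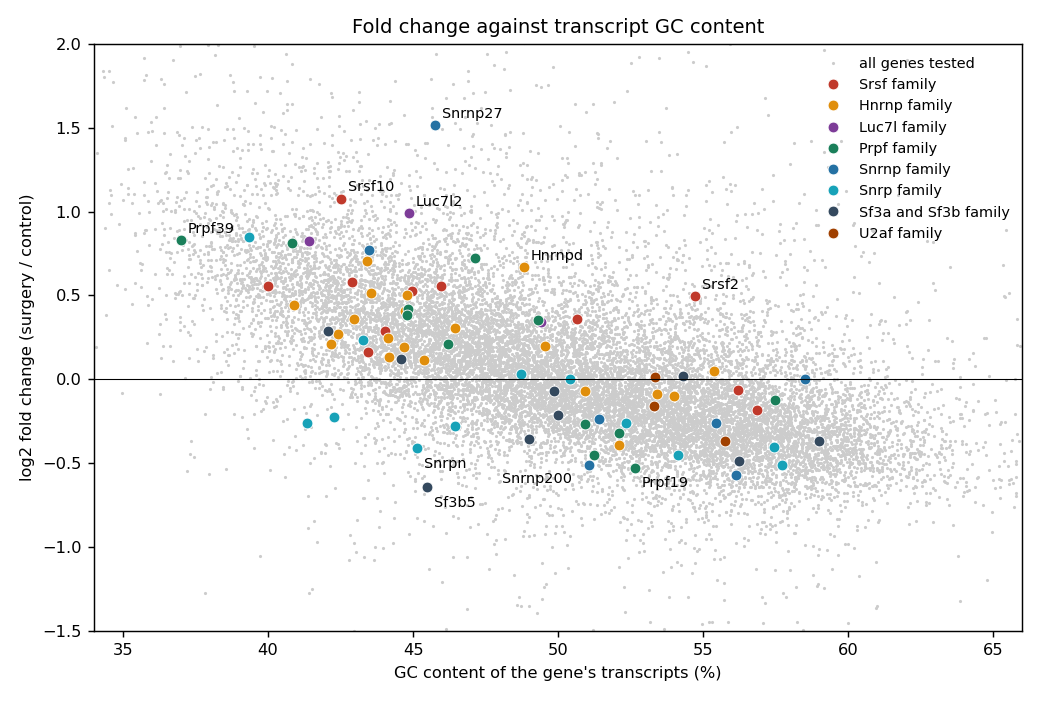
The horizontal axis is the median GC content of a gene's transcripts in percent and the vertical axis the log2 fold change between surgery and control mice. Grey points are all genes tested that lie within the axes, and coloured points are members, which run from 37.0% to 59.0% GC. Members follow the slope of the grey cloud, with Srsf2 and Snrnp27 above it and Sf3b5 and Snrpn below it.

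The SR proteins had a median log2 fold change of 0.50, against 0.01 over all genes. Srsf10, an SR protein that acts as a splicing repressor when dephosphorylated, was the one DEG. Its level was 47.0 and 40.4 CPM in the control mice and 91.1 and 93.3 CPM in the surgery mice, so the groups were far apart. The rise was 2.11-fold (log2 fold change 1.08, standard error 0.09, edgeR adjusted p = 0.0042) and stayed at a log2 fold change of 0.64 (adjusted p = 0.024, same test) with the GC correction. Srsf2, which binds exonic enhancers and is known for regulation of its own mRNA, stood at 59.5 and 60.2 CPM in the control mice and 82.5 and 86.1 CPM in the surgery mice. It was 1.41-fold higher (edgeR adjusted p = 0.0058), and the correction moved its log2 fold change up, from 0.50 to 0.66 (adjusted p = 0.023). Srsf2 and other members that passed but are not DEGs were named after their values were seen.

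Srsf1, the founding SR protein and a general activator of 5′ splice site choice, was at 152.8 and 134.2 CPM in the control mice and 208.3 and 221.3 CPM in the surgery mice. Both surgery mice were above both control mice, by 1.498-fold (edgeR adjusted p = 0.0058), just short of a DEG, and the log2 fold change was 0.17 after the correction and no longer passed. Srsf3, the smallest SR protein, rose 1.47-fold and had a log2 fold change of -0.05 after the correction. Srsf11, Srsf12 and Srsf6 rose 1.47-, 1.44- and 1.28-fold, and had corrected log2 fold changes of 0.30, 0.22 and 0.36 that did not pass. Without control mouse 2, Srsf12 and Srsf6 did not pass either.

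The other 4 SR genes did not pass the test. Srsf5, the most abundant of the family at 270.2 CPM per kb of transcript, had 381.8 and 382.8 CPM in the control mice and 379.2 and 475.2 CPM in the surgery mice. One surgery mouse was thus at the control level and the other above it (log2 fold change 0.16, standard error 0.11). Srsf9 was the member of the family nearest to 0, at -0.06, with 54.4 and 49.1 CPM against 49.8 and 49.4 CPM. Srsf7 had a log2 fold change of 0.29 and Srsf4 one of -0.18.

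Among the 20 Hnrnp genes, which package pre-mRNA and steer exon choice, mRNA stability and transport, 10 were higher, none was lower and the median log2 fold change was 0.23. Hnrnpa2b1, a carrier of mRNAs into neuronal and glial processes and the most abundant of the family at 264.7 CPM per kb, had 358.4 and 305.2 CPM in the control mice and 546.2 and 534.3 CPM in the surgery mice. It rose 1.63-fold without overlap (edgeR adjusted p = 0.0048). After the GC correction its log2 fold change was 0.33 in place of 0.70 and its adjusted p 0.083 by the same edgeR test. Hnrnpd, also known as AUF1 and a binder of AU-rich elements in mRNA 3′ ends, had 98.9 and 91.2 CPM against 147.5 and 155.2 CPM. Its rise of 1.59-fold (edgeR adjusted p = 0.0045) was the one in the family that also passed with the correction, at a log2 fold change of 0.58 (adjusted p = 0.023).

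The remaining 8 higher Hnrnp genes were Hnrnph1, Hnrnpa3, Hnrnpu, Hnrnpr, Hnrnpc, Hnrnpdl, Hnrnpk and Hnrnph2, with rises from 1.16-fold for Hnrnph2 to 1.43-fold for Hnrnph1. Hnrnpu, a nuclear matrix protein that organizes chromatin as well as pre-mRNA, had 488.7 and 460.3 CPM in the control mice and 635.0 and 656.2 CPM in the surgery mice. That is a tight 1.36-fold difference (edgeR adjusted p = 0.0056), yet its corrected log2 fold change was -0.08. Corrected log2 fold changes of Hnrnpc, Hnrnpk and Hnrnph2 were also below 0, at -0.04, -0.17 and -0.25, and none of them passed with the correction. Hnrnpc, Hnrnpdl, Hnrnpk, Hnrnph2 and Hnrnpr did not pass without control mouse 2, Hnrnpk and Hnrnph2 also not without control mouse 1 or surgery mouse 2, and Hnrnph2 and Hnrnpc not without surgery mouse 1. Hnrnpa3, Hnrnph2 and Hnrnpk share 26.1%, 11.1% and 11.7% of their 75-base windows with other genes, so reads of these genes may have been assigned to a copy.

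Hnrnpa0 was the Hnrnp member nearest to no difference, with 116.2 and 115.1 CPM in the control mice and 122.3 and 116.6 CPM in the surgery mice (log2 fold change 0.05). Hnrnpab had the most negative log2 fold change of the family, -0.39 with a standard error of 0.21. Its 2 control mice were at 76.1 and 76.8 CPM and its surgery mice at 72.6 and 44.0 CPM, so 1 surgery mouse carried the difference, and it did not pass.

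At the 5′ splice site act the 3 proteins of the U1 particle and the factors that attach to it. Snrnp70, the U1-70K protein that binds the U1 RNA, was the most abundant member of all per kb of transcript (301.6 CPM per kb) and had overlapping groups, with 539.6 and 506.4 CPM in the control mice and 513.3 and 533.6 CPM in the surgery mice. The log2 fold change was 0.00 with a standard error of 0.06, and 0.27 (edgeR adjusted p = 0.096) with the correction. Snrpa and Snrpc, the U1-A and U1-C proteins, were lower at 0.755- and 0.733-fold (edgeR adjusted p = 0.033 and 0.018), and neither passed with the correction. Neither passed without control mouse 2 or without surgery mouse 2, and Snrpa did not pass without control mouse 1.

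Of the 6 U1-associated factors, 5 were higher. The 3 Luc7l genes encode relatives of yeast Luc7, which stabilizes the pairing of U1 with the 5′ splice site. Luc7l2 had 136.5 and 126.2 CPM in the control mice and 253.3 and 268.9 CPM in the surgery mice. It rose 1.99-fold (log2 fold change 0.99, standard error 0.07, edgeR adjusted p = 0.0039) and kept a log2 fold change of 0.68 (adjusted p = 0.020) with the correction. Luc7l3 went from 138.3 and 128.2 CPM to 224.8 and 246.7 CPM, a rise of 1.77-fold (edgeR adjusted p = 0.0043). Its corrected value of 0.32 on the log2 scale was just outside the threshold (adjusted p = 0.057). Luc7l, the most abundant of the 3 per kb (75.5 CPM per kb), rose 1.27-fold, and passed neither with the correction nor without control mouse 2.

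Prpf39, the relative of the yeast U1 protein Prp39, belongs to the same stage. It had 44.6 and 40.3 CPM against 71.0 and 79.8 CPM, 1.78-fold higher (edgeR adjusted p = 0.0045), and its corrected log2 fold change was -0.04. Prpf40b, another U1-associated factor, did not pass, with 108.1 and 102.7 CPM against 94.4 and 99.1 CPM (log2 fold change -0.12). Grouped by particle, a grouping made after the values were seen, 5 of 6 U1-associated factors were higher and none lower. Of the 3 U1 proteins, none was higher and 2 were lower, against 13.1% and 12.8% of all genes tested. Median transcript GC was 43.1% for the factors and 57.4% for the U1 proteins. With the correction, 2 of the 6 factors were higher and no U1 protein passed, against 0.968% of all genes higher and 1.46% lower.

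At the 3′ end of the intron, U2af2, the large U2AF subunit that binds the polypyrimidine tract, was lower. Its levels were 169.5 and 160.4 CPM in the control mice and 126.8 and 128.5 CPM in the surgery mice, or 0.774-fold (edgeR adjusted p = 0.0090), and the correction left a log2 fold change of -0.17 that did not pass. U2af1, which reads the AG at the splice site, had a log2 fold change of -0.16 and did not pass. U2af1l4 was near 0 at 0.02 (standard error 0.26). Its assignment of reads is uncertain, as 63.3% of its windows are shared with other genes and it overlaps both Igflr1 and the untested entry of its own name on the same strand.

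Of the 11 proteins of the U2 particle, 2 were higher and 4 were lower, against 13.1% and 12.8% of all genes tested. With the correction none was higher and 2 were lower, against 0.968% and 1.46% of all genes. Sf3b5, a small subunit of SF3b, the complex that holds the branch point, was the one lower DEG among the members. It had 48.3 and 47.7 CPM in the control mice and 30.7 CPM in each surgery mouse, a ratio of 0.640 (log2 fold change -0.64, standard error 0.08, edgeR adjusted p = 0.0049). Its transcripts are 45.5% GC, and the correction took the log2 fold change further down, to -0.92 (edgeR adjusted p = 0.020). That GC content belongs to a transcript model of 3841 bases with 86 codons, whose coding sequence is 61.3% GC. The corrected value rests on this model, and how reads cover it was not tested. Sf3b3, the large scaffold of SF3b, went from 114.7 and 116.8 CPM to 92.2 and 88.4 CPM (log2 fold change -0.36, edgeR adjusted p = 0.010) and to -0.45 with the correction (adjusted p = 0.037). Sf3a2 and Sf3b4 were lower at 0.775- and 0.714-fold and did not pass with the correction, nor without control mouse 2 or without surgery mouse 2. Of the windows of Sf3b4, 38.1% are shared with other genes.

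Sf3b1, the subunit that clamps the branch point helix, ran against these. It was 1.22-fold higher, with 313.8 and 302.1 CPM in the control mice and 371.2 and 381.7 CPM in the surgery mice, and had a log2 fold change of -0.16 after the correction. Without control mouse 2 it did not pass. Sf3b2, the most abundant SF3 gene at 73.1 CPM per kb, had a log2 fold change of 0.02. Snrpb2, the U2-B″ protein, was the one higher member of the Snrp family, at 11.2 and 11.5 CPM in the control mice against 19.5 and 21.4 CPM in the surgery mice (1.80-fold, edgeR adjusted p = 0.0063), and its corrected log2 fold change of 0.19 did not pass. Its partner Snrpa1, the U2-A′ protein, was the Snrp member nearest to 0, with 10.3 and 11.5 CPM against 11.8 and 10.1 CPM.

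The Sm proteins form the ring around which U1, U2, U4 and U5 are built. None of the 8 Sm genes was higher and 2 were lower, against 13.1% and 12.8% of all genes tested. The median log2 fold change was -0.26. With the correction none was higher and 1 was lower, against 0.968% and 1.46% of all genes. The corrected median was -0.38, beside -0.03 for all genes. Snrpn, the neuronal SmN protein from an imprinted locus (chromosome 7, 59982495 to 60140219, minus strand), had 146.4 and 147.1 CPM in the control mice and 113.9 and 107.2 CPM in the surgery mice. It was 0.754-fold as high (edgeR adjusted p = 0.0072). The corrected log2 fold change was -0.70 (edgeR adjusted p = 0.023) in place of -0.41. Its transcripts are 45.1% GC and its coding sequence 55.6%. Snurf lies on the same strand within that locus, and 18.9% of the windows of Snrpn are shared with other genes, so part of the count may belong to it. Snrpb, the SmB protein that SmN can replace in neurons, was 0.703-fold as high (edgeR adjusted p = 0.017) and passed neither with the correction nor without control mouse 2.

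Of the 8 tri-snRNP proteins, 2 were higher and 3 were lower, against 13.1% and 12.8% of all genes tested. With the correction 1 was higher and 2 were lower, against 0.968% and 1.46% of all genes. Snrnp27 was the DEG among the 8. This RS-domain protein had 10.03 and 6.61 CPM in the control mice (173 and 121 counts) and 23.0 and 24.5 CPM in the surgery mice. The rise of 2.86-fold was the largest of all members (log2 fold change 1.52, standard error 0.20, edgeR adjusted p = 0.0052), and it was still 1.25 on the log2 scale after the correction (adjusted p = 0.031). The control mice differed by more than the surgery mice, and the log2 fold change ran from 1.24 to 1.84 as each mouse was left out.

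Snrnp200, the Brr2 helicase that unwinds U4 from U6, and Prpf8, the U5 protein at the catalytic center, were both lower. Snrnp200 had 192.7 and 213.1 CPM in the control mice and 141.8 and 142.8 CPM in the surgery mice (log2 fold change -0.51, edgeR adjusted p = 0.0057). For Prpf8 the levels were 335.8 and 370.1 CPM against 250.0 and 266.1 CPM (log2 fold change -0.45, edgeR adjusted p = 0.0075). Neither pair of groups overlapped, and with the correction both still passed, at -0.49 and -0.41 (adjusted p = 0.029 and 0.037). Prpf6, the bridge between U5 and U4/U6, was 0.802-fold as high and did not pass with the correction or without control mouse 1, control mouse 2 or surgery mouse 2. Prpf3 was 1.28-fold higher and did not pass with the correction or in any of the 4 fits without 1 mouse.

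Prpf19, the ubiquitin ligase of the Prp19 complex that activates the assembled spliceosome, had 228.5 and 241.0 CPM in the control mice and 161.0 and 164.9 CPM in the surgery mice. It was 0.694-fold as high (edgeR adjusted p = 0.0046), with a corrected log2 fold change of -0.44 (adjusted p = 0.031) against -0.53 without the correction. Prpf38b, a protein with an RS domain, moved the other way, from 56.5 and 52.6 CPM to 89.2 and 90.8 CPM. Its rise of 1.65-fold (edgeR adjusted p = 0.0045) passed with the correction at a log2 fold change of 0.53 (adjusted p = 0.031). Prpf4b, a kinase of tri-snRNP proteins, had 97.9 and 81.4 CPM in the control mice and 158.7 and 156.2 CPM in the surgery mice, 1.76-fold higher (edgeR adjusted p = 0.0047), and its corrected log2 fold change of 0.29 did not pass. Prpf18, which acts late in the splicing reaction, rose 1.34-fold and passed neither with the correction nor without control mouse 2.

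Of the 3 proteins of the minor U11/U12 spliceosome, Snrnp48 was higher and Snrnp25 lower. Snrnp48 had 27.2 and 25.2 CPM in the control mice and 44.6 and 44.8 CPM in the surgery mice (1.71-fold, edgeR adjusted p = 0.0046), and its corrected log2 fold change was 0.39 (adjusted p = 0.068). Snrnp25 was 0.675-fold as high, from 11.4 and 11.2 CPM to 7.76 and 7.45 CPM, and passed neither with the correction nor in any of the 4 fits without 1 mouse. Snrnp35 was between them and did not pass.

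**Figure D3:**
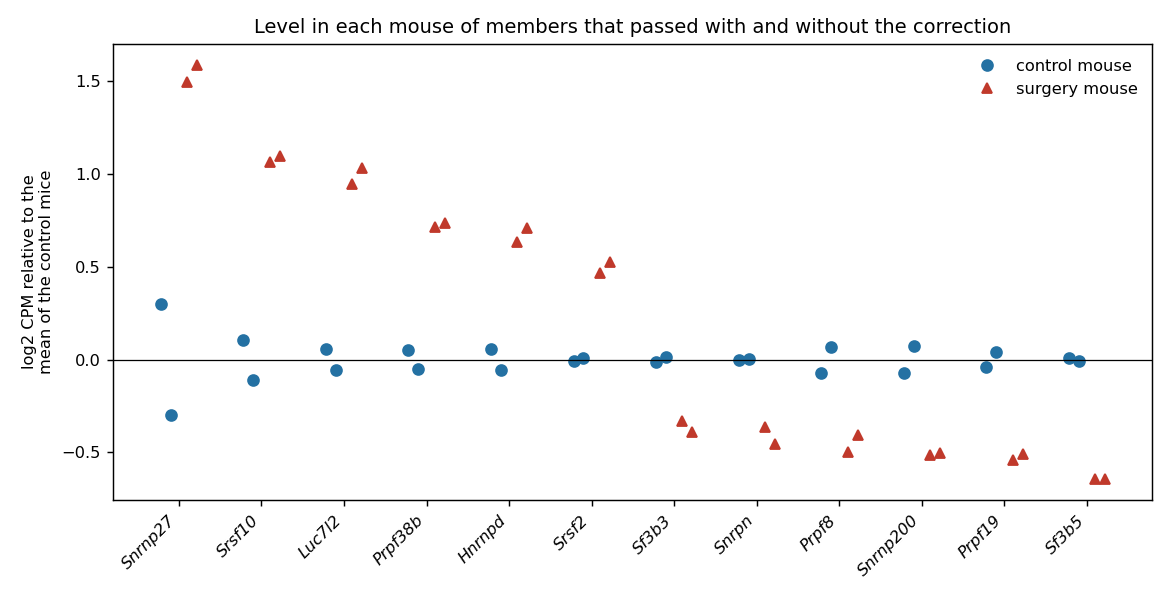
The vertical axis gives log2 CPM after subtraction of the control mean for 12 of the 13 members that passed both with and without the correction, with a circle for each control mouse and a triangle for each surgery mouse. The 6 higher members shown, from Snrnp27 to Srsf2, and the 6 lower members, from Sf3b3 to Sf3b5, have no overlap between groups, and the 2 circles of Snrnp27 are the farthest apart.

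The 13 members that passed both ways included Srsf10, Srsf2, Hnrnpd, Snrnp27, Prpf38b and Luc7l2 on the higher side, and Snrnp200, Snrpn, Sf3b3, Sf3b5, Prpf8 and Prpf19 on the lower side. The 4 fits that left out 1 mouse were run only without the correction, so they do not bear on the corrected calls. Each leaves 1 mouse in a group, so the spread comes from the other group alone. Among the 44 members that passed with all mice, none changed sign in those 4 fits. Without control mouse 2, 18 of the 44 no longer passed, against 6 without control mouse 1, 4 without surgery mouse 1 and 9 without surgery mouse 2. Several of the 13 lie over another gene, and whether strand was used in counting is not given in the sources used here. Hnrnpd, Luc7l2, Srsf2 and Sf3b3 overlap genes on the opposite strand (Gm17092, Gm26699, Mettl23 and Mfsd11, and Cog4), Sf3b3 also holds Snord111 on its own strand, and 7.95% of the windows of Srsf10 are shared with other genes. Snrpn overlaps Snurf and Gm38393 on its own strand and Gm18908 on the opposite one. Of the remaining DEGs, Prpf39 overlaps Fkbp3 and Prpf4b overlaps Gm36839 on the opposite strand. With the correction the medians by family were 0.17 for Srsf, -0.01 for Hnrnp, 0.32 for Luc7l, 0.08 for Prpf, -0.08 for Snrnp, -0.22 for Snrp, -0.20 for Sf3a and Sf3b and -0.06 for U2af (-0.16 without the correction), beside -0.03 for all genes.

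**Figure D4:**
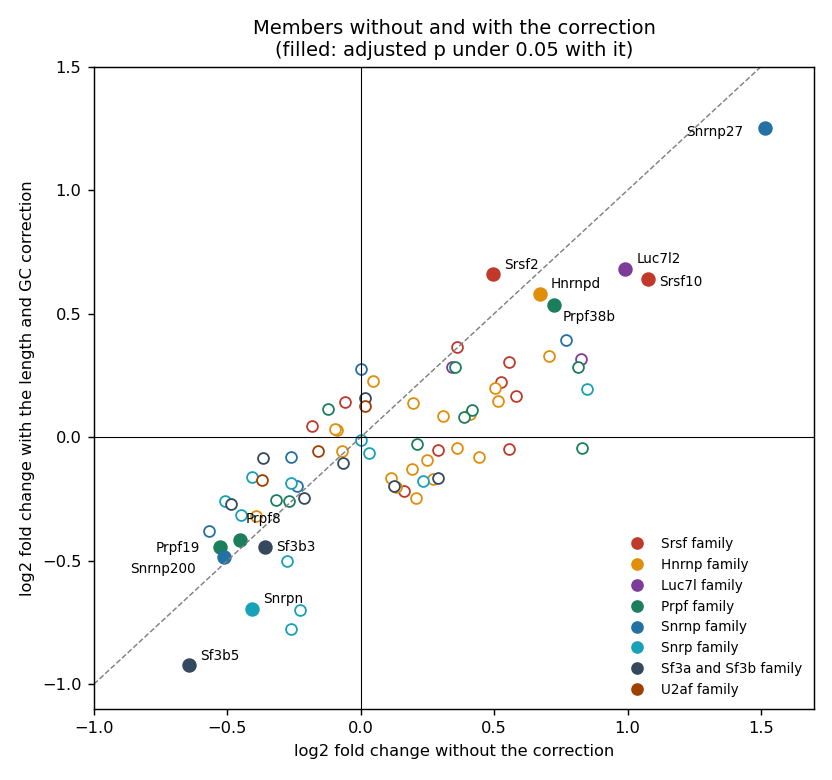
Each point is a tested member, with its log2 fold change without the length and GC correction on the horizontal axis and with it on the vertical axis, and the dashed line marks equal values. Filled points passed the edgeR test with the correction. Many Hnrnp and Srsf members lie below the dashed line, nearer to 0 or under it, whereas Snrnp27 keeps 1.25 and Sf3b5 moves down to -0.92.

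Within ranges of GC content, the members were compared with all genes of the same range, the ranges being set after the values were seen. Below 45% GC, 21 of 31 members (67.7%) were higher, against 42.2% of all genes, but their median log2 fold change was 0.42 against 0.48. Between 45% and 50%, 7 of 16 members were higher and 3 lower, where 12.4% and 2.40% of all genes were, and the medians were 0.20 for members and 0.14 for all genes. From 50% to 55%, 2 of 19 members were higher and 5 lower (26.3%), against 2.50% and 14.1% of all genes, with medians of -0.21 and -0.11. At 55% and above, 6 of 12 members were lower and none higher, against 33.2% and 0.559%, with medians of -0.32 for members and -0.30 for all genes.

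The RS domain can also be followed across families. Genes with at least 5 adjacent arginine-serine codon pairs per 100 codons, a bound chosen after the values were seen, were called RS-rich, and 58 of the 14547 tested genes with a coding sequence were. Of the 18 RS-rich members, 13 were higher and none was lower, and their median log2 fold change was 0.54. Of these 18, 10 are Srsf genes (7 higher) and 3 are Luc7l genes (3 higher), so the count mostly repeats those of the 2 families, and of the remaining 5 members 3 were higher. The 60 members that are not RS-rich were 17 higher and 14 lower, with a median of 0.00. Of the 40 RS-rich genes outside the 8 families, 21 were higher and 2 (Cherp and Arl6ip4) were lower, and their median was 0.34, where 13.8% of all tested genes with a coding sequence were higher and 14.8% lower.

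After the correction 5 RS-rich members were higher and none lower, namely Srsf10, Srsf2, Snrnp27, Prpf38b and Luc7l2, and 5 of the 40 other RS-rich genes were higher and none lower, beside 0.969% higher and 1.68% lower among all tested genes with a coding sequence. Those 5 were Ppig, Ccnl1, Rsrc2, Nktr and Srrm1. Of the 60 members without such a density, 2 were higher, Hnrnpd among them, and 6 were lower. The corrected medians were 0.28 for RS-rich members, 0.16 for other RS-rich genes and -0.10 for the remaining members. Without the correction, 5 RS-rich members did not pass. They were Srsf5, Srsf7 and Prpf38a, with positive log2 fold changes, and Srsf4 and U2af1, with negative ones. With the correction the values of Srsf5 and Srsf7 were negative and that of Srsf4 was positive.

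**Figure D5:**
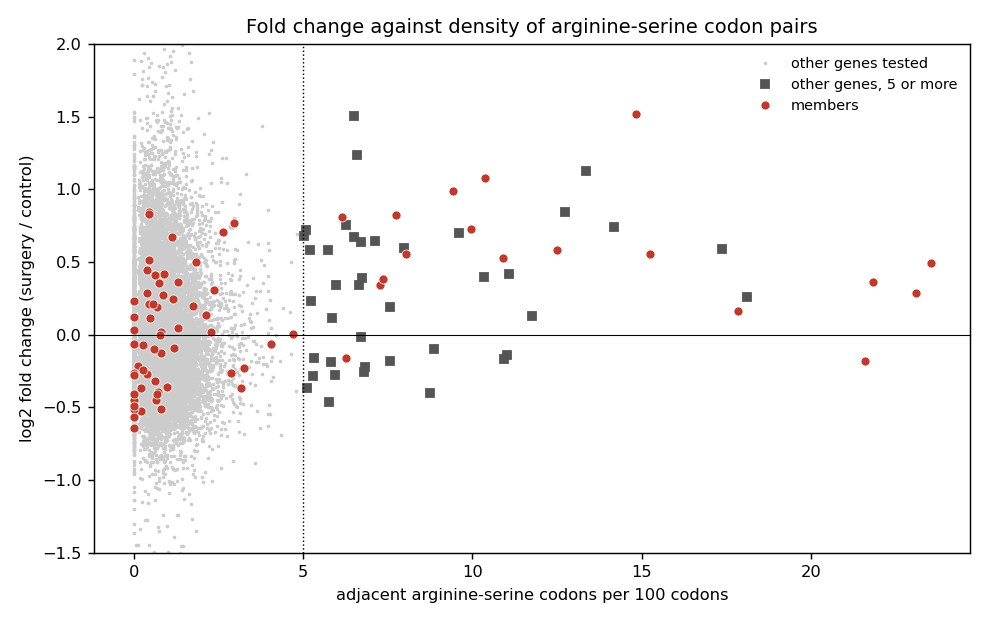
The horizontal axis is the number of adjacent arginine-serine codon pairs per 100 codons and the vertical axis the log2 fold change between surgery and control mice. Red points are members, grey squares other genes at or above the dotted bound of 5 and grey points the remaining genes within the axes. To the right of the bound most red points are above 0, from Prpf4b to Srsf2, and only Srsf4 and U2af1 are below it.

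Splicing genes outside these families were followed through lists by role, of which 115 of 117 genes were tested. Some of them, Rsrc2, Srrm1 and Cherp included, were also counted above as RS-rich genes outside the families, so these counts share genes. Of the 115 genes, 36 were higher and 15 lower (31.3% and 13.0%), beside 13.1% and 12.8% of all genes tested. With the correction 6 were higher and 1 lower (Smu1, named after its value was seen, log2 fold change -0.30 and corrected -0.63), beside 0.968% and 1.46% of all genes. The SR-related and exon-definition proteins had 12 of 18 higher and 2 lower, with Rbm25, a regulator of 5′ splice sites, at a log2 fold change of 1.24 and Rsrc2 at 1.13, and both passed with the correction (0.78 and 0.70). Other factors of the U1, U2 and 3′ splice site stage had 7 of 16 higher and 3 lower, led by U2surp (1.11) and Smndc1 (0.80), neither of which passed with the correction. The hnRNP-related proteins had 4 of 16 higher and 3 lower, led by Matr3 (1.14, corrected 0.61 and passing) and Syncrip (0.95, corrected 0.30 and not passing).

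In the list of the U6 LSm ring, tri-snRNP and activation, 1 of 19 was higher and 5 lower, and the LSm ring protein Lsm4 (-0.64) and the helicase Dhx38 (-0.54) led it, neither of which passed with the correction. The list of the Prp19 complex and of proteins of the Bact to C complexes had 7 of 21 higher and 1 lower, with Bud31 at 1.38 and Crnkl1 at 0.62. Bud31, an early partner of the catalytic core, also passed with the correction, at 1.22, and Crnkl1 did not. The exon junction complex had 1 of 5 higher (Rbm8a, 0.30) and 1 lower (Eif4a3, -0.36), the other minor spliceosome proteins 2 of 6 higher (Rnpc3, 0.98, and Zcrb1, 0.67) and none lower, and the snRNP assembly list 2 of 14 higher (Tgs1, 0.55, and Phax, 0.41) and none lower. Of these, Zcrb1 passed with the correction, at 0.44.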

How the data were processed

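Hippocampal RNA of 2 control and 2 surgery mice was selected for poly(A) tails with oligo(dT) and sequenced. The authors mapped 150 nt reads to mm10 and deposited raw counts per gene for each mouse. The submitters' processing notes list HISAT2 2.1.0, HTSeq 0.6.0, Bowtie2 2.2.3 and TopHat2. Strand use is not given in the sources used here. The deposited table also holds the authors' comparison, namely a mean signal, the fold change as a ratio, its log2 and p-values, and none of these columns was used. All 29300 genes were named, and 24 symbols turned into dates were restored. Coding sequences and GC contents came from GENCODE M21.

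Counts were analysed with edgeR 4.0.16 in R 4.3.3 (filterByExpr at a minimum count of 10, TMM, quasi-likelihood F test, Benjamini-Hochberg adjustment), with condition as the only term, and standard errors were derived from F. The correction removed the smooth dependence of each library's counts on transcript length and GC (mgcv 1.9.3, basis size 8) as offsets. DESeq2 1.42.0, other scalings, no filter, the replicate number as a block and leaving out each mouse were alternatives. The procedures were tested on simulated data. Replicates differed by more than sampling noise (chi-square per degree of freedom 13.2 in control and 8.35 in surgery mice).

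In each family the DEGs and the members with the largest absolute fold change, the highest level per kb and the fold change nearest to 0 were named, with the 2 passing genes of largest absolute fold change in each list of other splicing genes. Members, lists and rules were chosen with earlier results of these data known. Particle grouping, GC ranges, the RS bound and the exon windows were set after the values were seen. The values of 1 member are not reported here, though it stays in all counts and medians.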

Additional observations from a re-analysis of the deposited data

How the results depend on the processing

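The length and GC correction left 7 members higher (2 Srsf, 1 Hnrnp, 1 Snrnp, 0 Snrp, 0 Sf3, 2 Prpf and 1 Luc7l) and 6 lower (1 Snrnp, 1 Snrp, 2 Sf3, 2 Prpf and 0 U2af), with 4 higher and 2 lower DEGs and a median log2 fold change of -0.05. Together with the replicate number as a block it left 16 members higher (among them 4 Srsf, 3 Hnrnp, 0 Snrp, 0 Sf3 and 3 Prpf) and 13 lower (1 Srsf, 2 Hnrnp, 1 Snrnp, 3 Snrp, 3 Sf3, 3 Prpf and 0 U2af), 4 higher and 3 lower DEGs, and a median of -0.0502. The labels number the replicates alike in both groups, but nothing says that equal numbers pair the mice, and deviations of equal numbers correlated at 0.22. The block alone gave 32 higher and 15 lower members, and no passing member lost its call. Of the members with values given by name, 13 passed with the correction and block but not with the correction alone. Srsf5 (-0.23, edgeR adjusted p = 0.030) and Hnrnph2 (-0.24, edgeR adjusted p = 0.022) were then lower, Hnrnph2 against its higher call without the correction, and Hnrnpa2b1, Snrnp48, Prpf4b, Luc7l3, Luc7l, Srsf11, Srsf6, Snrpb and Prpf6 passed in the direction of their call without it. Hnrnpa0 (0.23) and Snrnp70 (0.28), with no call without it, were higher. Without the filter on low counts 9 members were lower (among them 1 Snrnp and 2 Snrp), with the DESeq2 test 1 Snrnp member was lower, and scaling by library totals moved the median to 0.18 and the median of all genes by 0.05. Leaving out each mouse gave 19 to 29 higher and 7 to 14 lower members, 1 to 4 lower DEGs, 5 to 9 higher and 0 to 1 lower Hnrnp, 1 to 1 lower Snrnp, 1 to 4 lower Snrp, and 0 to 1 higher and 2 to 4 lower Sf3 members. Control mouse 2 gave the lowest counts (19 and 7). By the p threshold alone 30 and 14 members were called, and 12 and 1 with the fold bound. The cause of these shifts was not tested.

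Named genes whose log2 fold change turned its sign with the correction (first value) and with the correction and block (second value) were Srsf3 (-0.047 and -0.0481), Srsf4 (0.0452 and 0.0437), Srsf5 (-0.22 and -0.23), Srsf7 (-0.0531 and -0.0523), Srsf9 (0.14 in both), Hnrnpu (-0.082 and -0.0821), Hnrnpc (-0.0446 and -0.0445), Hnrnpk (-0.17 in both), Hnrnph2 (-0.25 and -0.24), Prpf39 (-0.0425 and -0.0426), Prpf40b (0.11 and 0.12), Sf3b1 (-0.16 in both), Rbm8a (-0.0411 and -0.0407) and Snrpa1 (-0.011 and -0.0131). Snrpa1 was also below 0 with DESeq2 (-0.0071), its size factors (-0.0086), no filter (-0.011) and the block (-0.001), as was Snrnp70 with the first 3 of these (-0.0073, -0.0074 and -0.0089). Without 1 mouse, Srsf5 ran from -0.0061 to 0.30, Srsf9 from -0.14 to 0.0091, Hnrnpa0 from -0.002 to 0.086, Snrnp70 from -0.0475 to 0.0424, Snrpa1 from -0.13 to 0.12, Sf3b2 from -0.0055 to 0.0303 and U2af1l4 from -0.11 to 0.13.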

Other observations

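Among RS-rich genes outside the 8 families, 5 were higher both without and with the length and GC correction, and were named after their values were seen. Ppig, a nuclear cyclophilin with an RS tail, had 30.8 and 25.9 CPM in the control mice and 76.7 and 84.3 CPM in the surgery mice, a log2 fold change of 1.504 that was 0.68 with the correction. Ccnl1, the RS-bearing cyclin L1, had 27.1 and 21.1 CPM against 52.5 and 60.9 CPM, with log2 fold changes of 1.23 and 1.06. Both surgery mice were above both control mice in each of these. Srrm1, a coactivator that bridges SR proteins, had 148.1 and 132.0 CPM against 206.4 and 213.2 CPM, with log2 fold changes of 0.58 and 0.63, and was the one of the 5 whose value the correction moved up. For Nktr the log2 fold changes were 0.60 and 0.40, and for Rsrc2 they were 1.13 and 0.70.

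A pair of processed pseudogenes carries symbols of the same families and was outside the rule. Snrpert was counted 16 and 27 times in control mice, and 10 and 12 times in surgery mice. Hnrnpa1l2-ps had 1 count in 1 control mouse and none in the other 3 libraries.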
